A study of Homo sapiens with 4 samples.

Results

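H4K20me3, histone H4 trimethylated at lysine 20, was profiled by ChIP-seq (immunoprecipitation of chromatin followed by sequencing) in IMR90, a line of human lung fibroblasts that stops dividing after long culture. The regions described here lay in the DiffBind list, the set of sites whose H4K20me3 enrichment differed between proliferating and senescent cells at a false discovery rate of 0.01, but touched no peak that both antibodies gave in either state. They were chosen by that contrast and by the absence of a peak: a DiffBind region on chromosomes 1 to 22 was kept when it shared not even 1 base with a PRO peak or an RS peak. This left 4499 of the 17541 DiffBind regions on these chromosomes, or 25.6%, from a whole list of 18711. They covered 6.34 Mb. The other 13042 regions overlapped a peak and served as the main comparison.

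Proliferating cells (PRO) were at population doubling 32 and senescent cells (RS), which had undergone replicative senescence, were at population doubling 86. Both came from the same line, grown in low oxygen, and no genotype or drug set them apart. Each state was profiled once with a Millipore antibody and once with a Cell Signaling antibody, giving 4 samples in 2 groups of 2. The study speaks of independent RS experiments, and the labels do not say whether the samples of a group came from separate cultures. Each group was represented by 1 list of peaks shared by its antibodies, so the lists gave no value per sample, no spread between replicates and no read depth, and depth was not used here. The read totals that the study reports were uneven between the replicates of each group. Whether the smaller library limited the shared peaks was not tested. Neither the direction of change nor the number of sites that DiffBind examined was in the list, so no share of sites past the threshold could be given and no comparison carries a p-value.

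Trimethylation of H4K20 is placed mainly by the enzyme KMT5C, which is recruited through HP1 proteins bound to methylated H3K9. The mark is known for its place in constitutive heterochromatin at pericentromeric and telomeric repeats and over the clustered zinc finger genes, where it accompanies a closed chromatin state. A differential-binding analysis counts reads over a set of candidate sites in every sample. A site can therefore differ between states without being a peak with both antibodies in either state.

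The sequences below are shown because coding sequence rich in G and C was more frequent in these regions than in the DiffBind regions over a peak. Each of the 6 is the central 200 bases of the stretch that a region shared with a coding exon, in hg19 coordinates and printed on the plus strand, with every CpG dinucleotide in capitals. BSN encodes Bassoon, a scaffold of the presynaptic active zone (chr3:49692501-49692700), ZNF423 a zinc finger transcription factor (chr16:49671078-49671277, gene on the minus strand) and EP300 a histone acetyltransferase (chr22:41573767-41573966). FZD10 encodes a Frizzled receptor for Wnt ligands (chr12:130648316-130648515), HTR1B a serotonin receptor (chr6:78172436-78172635, gene on the minus strand) and HSPA1A a heat shock protein of the HSP70 family (chr6:31784368-31784567).
BSN: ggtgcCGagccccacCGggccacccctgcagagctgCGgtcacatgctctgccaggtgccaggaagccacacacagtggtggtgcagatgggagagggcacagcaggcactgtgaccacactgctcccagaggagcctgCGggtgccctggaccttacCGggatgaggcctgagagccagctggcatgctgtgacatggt
ZNF423: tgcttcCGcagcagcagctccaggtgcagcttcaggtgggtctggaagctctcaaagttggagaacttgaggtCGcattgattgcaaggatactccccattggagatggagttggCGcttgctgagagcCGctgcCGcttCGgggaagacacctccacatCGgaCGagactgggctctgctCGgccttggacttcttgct
EP300: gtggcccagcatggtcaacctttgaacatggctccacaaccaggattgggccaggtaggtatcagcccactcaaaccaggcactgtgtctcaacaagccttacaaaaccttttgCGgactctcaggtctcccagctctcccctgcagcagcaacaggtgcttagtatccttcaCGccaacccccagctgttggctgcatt
FZD10: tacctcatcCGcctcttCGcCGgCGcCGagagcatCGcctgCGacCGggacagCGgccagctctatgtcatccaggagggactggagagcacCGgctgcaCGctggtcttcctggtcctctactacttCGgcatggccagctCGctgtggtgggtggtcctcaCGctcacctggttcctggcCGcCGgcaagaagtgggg
HTR1B: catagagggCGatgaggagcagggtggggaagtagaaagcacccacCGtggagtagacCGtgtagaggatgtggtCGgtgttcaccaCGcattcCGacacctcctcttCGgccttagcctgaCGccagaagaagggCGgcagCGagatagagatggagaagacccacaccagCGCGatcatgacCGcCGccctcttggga
HSPA1A: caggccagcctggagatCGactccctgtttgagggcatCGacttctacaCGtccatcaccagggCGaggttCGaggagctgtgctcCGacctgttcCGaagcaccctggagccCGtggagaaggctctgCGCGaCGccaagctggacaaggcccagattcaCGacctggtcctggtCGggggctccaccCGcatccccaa

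The coding windows differed among themselves in CpG content. The FZD10 window held 16 CpG dinucleotides, the HTR1B and HSPA1A windows held 14 each, the ZNF423 window held 9, the BSN window 5 and the EP300 window 2. Their GC content lay between 55% in EP300 and 66% in BSN and FZD10. A high GC content thus came with many CpG dinucleotides in FZD10 and with few in BSN.

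The regions were short. Their median length was 1201 bp, with an interquartile range of 1001 to 1801 bp and a range of 201 to 9201 bp, against a median of 1601 bp for the DiffBind regions over a peak, which reached 65401 bp. The mean was 1410 ± 741 bp (SD, n = 4499) against 2015 ± 1740 bp (SD, n = 13042). Of all DiffBind regions under 900 bp, 35.3% had no peak, and of those of 2500 bp or more only 10.0% had none. A longer region offers more bases that can meet a peak, so the rule itself favours short regions. In the first 50% of the rows of the DiffBind list both sets had a median of 1801 bp.

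Their GC content was higher. The median was 51.0%, with an interquartile range of 46.9 to 55.2%, against 47.7% (44.6 to 51.7%) over a peak, 49.4% for RS peaks, 49.6% for PRO peaks and 41.0% for the genome. Above 60% GC lay 367 of the regions, or 8.16%, and 272, or 2.09%, of those over a peak. The distributions overlapped broadly. The share of DiffBind regions that had no peak rose in each step of GC content, from 16.8% below 45% GC to 57.4% above 60%. The ratio of observed to expected CpG is low where methylated CpG has been lost over evolution. Its median was 0.232, against 0.204 over a peak, 0.200 for RS peaks and 0.323 for PRO peaks. The genome had 0.237. Genome values of GC content and CpG ratio were taken over all bases at once and are not medians of regions.

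**Figure D1:**
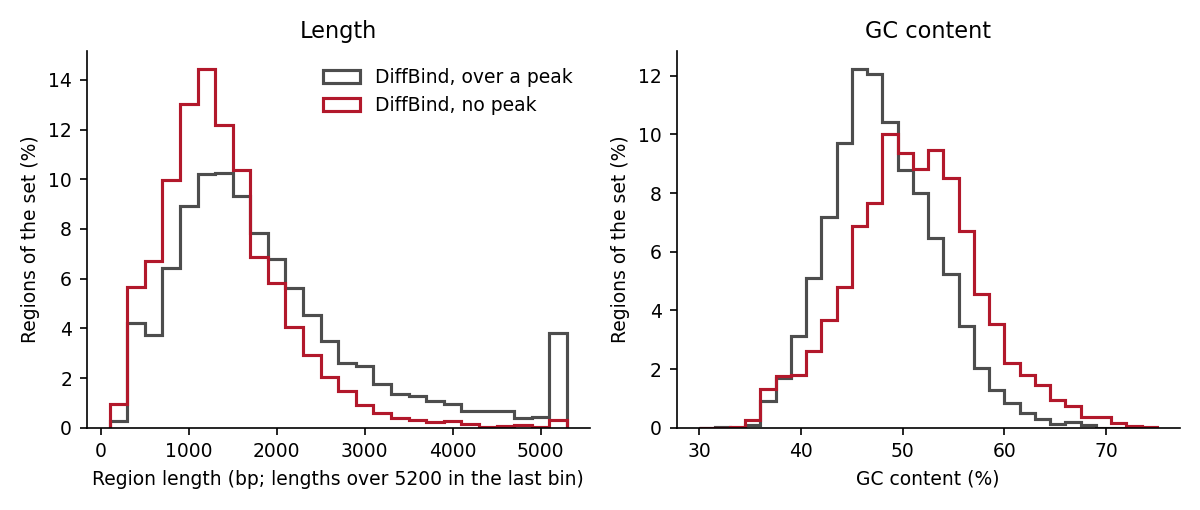
Length (left, bp) and GC content (right, %) of the DiffBind regions without a peak (red, n = 4499) and over a peak (grey, n = 13042), each as the percentage of its set in a bin. The red curve sits at shorter lengths (median 1201 against 1601 bp) and at higher GC content (median 51.0 against 47.7%).

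The rows of the DiffBind list were not sorted by position: only 18.1% of consecutive rows lay on the same chromosome. When the list was cut into 20 parts of equal length, the share of regions without a peak was 1 of 896, or 0.112%, in the first part, 24.2% in the tenth part and 483 of 877, or 55.1%, in the last. The median place of these regions was 72.9% of the way down the list, against 40.1% for those over a peak, and 944 of them, or 21.0%, stood in the first 50% of rows, against 60.2%. What the order stands for is not given in the sources used here. DiffBind by default puts the smallest p-value first, and whether the deposited rows kept that order was not tested. The order may come from the contrast that chose the regions and is given as a description only. The first of them in the list was row 713, a region of 5001 bp at chr4:87768801-87773801 that held 377 coding bases and most of the promoter of SLC10A6, which encodes a carrier of sulfated steroids. The ZNF423 region printed above (3601 bp, 5.65% down the list) and a 3001 bp region at the promoter of the potassium channel gene KCNC2 (chr12:75600601-75603601, 6.61% down the list) were among the first 5.

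**Figure D2:**
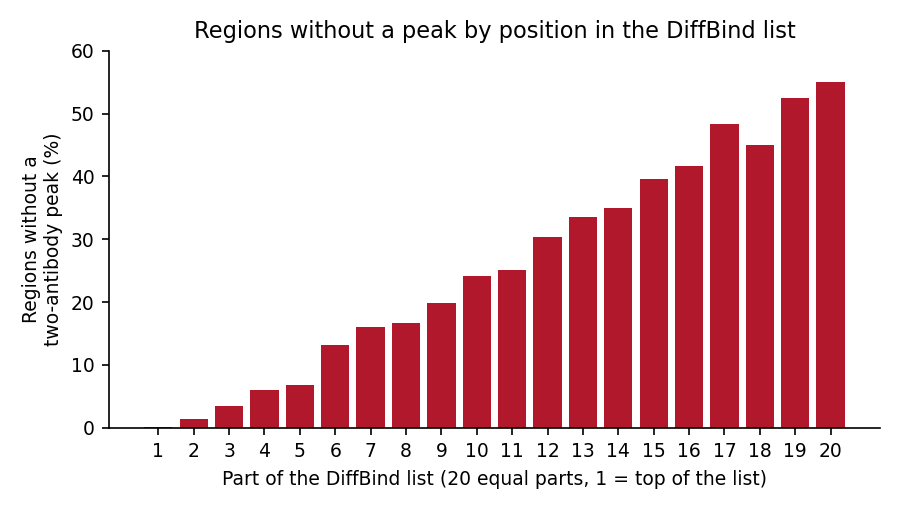
Percentage of DiffBind regions without a two-antibody peak (y axis) in 20 equal parts of the list, from its top (1) to its end (20). The bars climb from 0.112% in the first part to 55.1% in the last.

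A smaller share of the regions than of those over a peak was in zinc finger genes. These genes encode the C2H2 transcription factors of which many silence transposons, and here they were taken by symbol (ZNF, ZFP, ZSCAN or ZKSCAN and a digit). They held 1.71% of the bases of the regions without a peak, against 12.7% of those over a peak, 10.1% of RS peaks, 6.80% of PRO peaks and 0.814% of the genome. The share was thus above that of the genome. An RS peak was in 64.4% of these genes, and the rule drops every region that touches a peak. A share below that of the regions over a peak is therefore set in part by the rule. In number, 95 regions (2.11%) touched a zinc finger gene, against 1187 (9.10%) over a peak. A sequence coding for the linker that joins consecutive zinc fingers, searched on both strands, was present in 17 regions (0.378%) and in 245 of those over a peak (1.88%).

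Chromosome 19, which carries the largest zinc finger clusters, showed the same split. It held 203 of the regions without a peak and 4.57% of their bases, against 13.4% over a peak, and only 14.0% of its 1450 DiffBind regions had no peak, the lowest share of any autosome. It was not poor in such regions, since it makes up 2.08% of the genome. They took up 5.19 kb per Mb there, a density exceeded only on chromosome 22 (5.38 kb per Mb). Regions over a peak took up 63.2 kb per Mb of chromosome 19. Chromosome 22 had the highest, with 102 of 258 (39.5%), followed by chromosome 20 with 33.3%, and the other 19 chromosomes lay between 23.2 and 29.9%. Within chromosome 19 the share was 56 of 836 (6.70%) in zinc finger genes and 147 of 614 (23.9%) outside them. On the other chromosomes it was 39 of 446 (8.74%) in zinc finger genes and 27.2% outside them. The share was thus low in zinc finger genes on chromosome 19 and elsewhere alike. Where peaks are dense, the rule itself lowers it. Neighbouring regions in a gene cluster are not independent of each other.

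**Figure D3:**
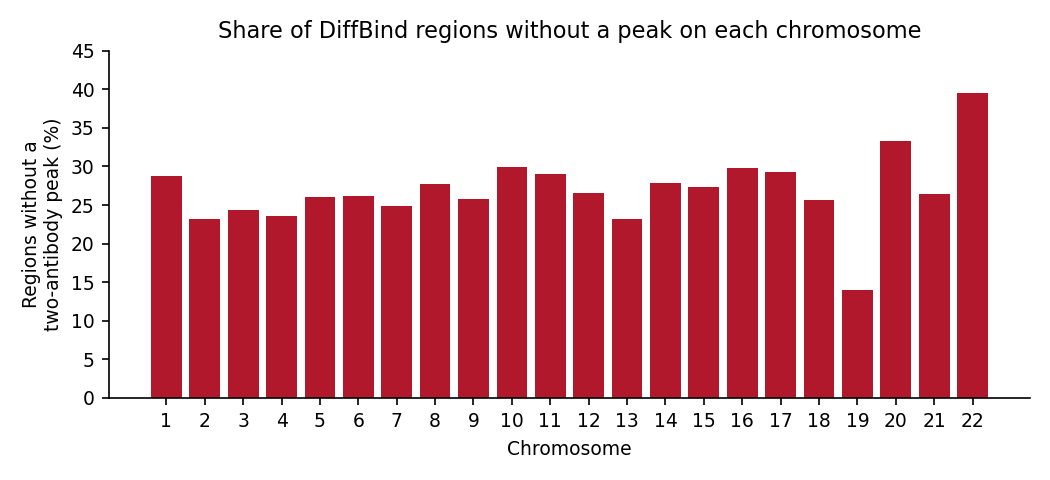
Percentage of the DiffBind regions on each autosome that touched no PRO or RS peak. Chromosome 19 is lowest at 14.0% and chromosome 22 highest at 39.5%.

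Coding exons were touched by a larger share of these regions than of the other 3 sets. A coding exon was touched by 557 of the 4499 (12.4%), against 1071 of the 13042 over a peak (8.21%), 5.11% of RS peaks and 9.26% of PRO peaks. By bases, 5.51% lay in coding exons, against 2.54% over a peak, 2.42% in RS peaks, 3.67% in PRO peaks and 1.28% of the genome. The gap was wider once exons of zinc finger genes were left out, with 5.12% against 1.38%. Coding exons of at least 1000 bp outside zinc finger genes took up 0.175% of the genome. They held 2.62% of the bases of the regions without a peak and 0.627% of those over a peak, and were touched by 131 (2.91%) and 89 (0.682%) of them. The regions over a coding exon had a median GC content of 57.4% and a CpG ratio of 0.375, against 48.0% and 0.262 for the regions over both a peak and a coding exon.

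Length, GC content and place in the list move with this difference, so it was also read within bins of each. Above 60% GC, 54.5% of the regions without a peak and 31.6% of those over a peak touched a coding exon. Between 50 and 55% GC the shares were 9.92 and 6.33%. Below 50% GC the order was turned round, with 3.94 against 4.77% between 45 and 50% GC and 2.46 against 10.9% below 45%. Zinc finger genes were touched by 5.97 and 22.8% of the regions over a peak in these bins. At 1300 to 1700 bp the shares that touched a coding exon were 13.3% without a peak and 4.86% over a peak. In the last 20% of the list they were 11.2 and 5.96%, and in the first 20%, where only 97 regions had no peak, 20.6 and 10.9%. At 2500 bp or more they were alike, at 19.9 and 20.0%. The 3942 regions outside coding exons still had a GC content of 50.2%, against 47.7% over a peak.

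**Figure D4:**
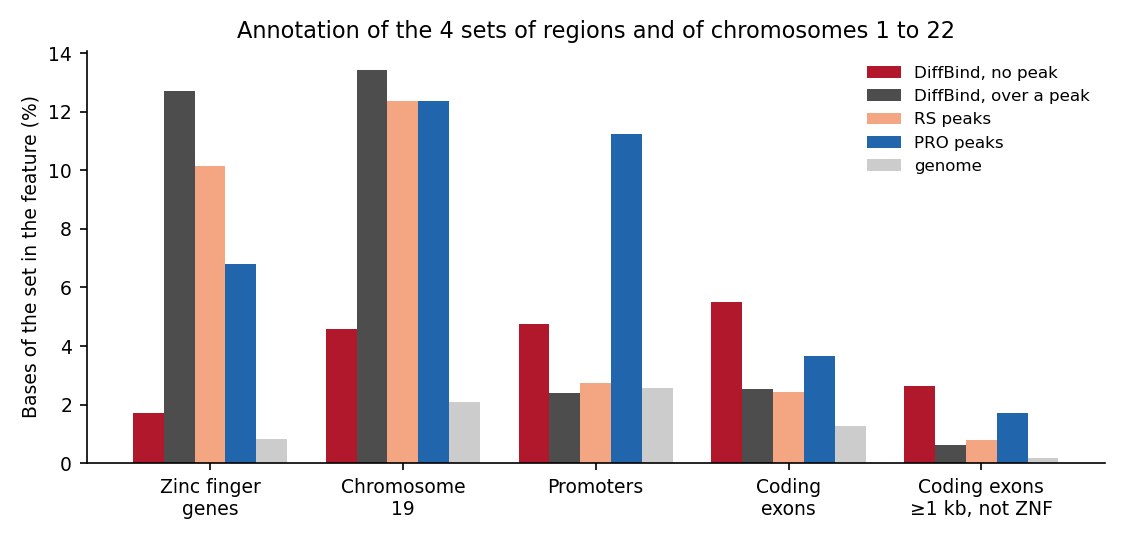
Percentage of the bases of each set (y axis) that lay in zinc finger genes, on chromosome 19, in promoters, in coding exons and in coding exons of at least 1000 bp outside zinc finger genes. The DiffBind regions without a peak (red) are lower than those over a peak (dark grey) in the first 2 features and higher in the last 3, and the light grey bars give the genome.

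Single long exons show what this looked like. By summed bases, a coding exon of BSN of 6654 bp came first, with 3802 bp (57.1%) in regions of 2401 and 1401 bp. In ZNF423 the exon of 3215 bp was covered whole by a single region, and in EP300 one of 2181 bp was covered whole too. A transcription factor gene with homeodomains, ZHX3, had 96.4% of a 2860 bp exon covered, and the zinc finger genes ZNF574 and ZNF865 had 96.0 and 75.6% of exons of 2708 and 3177 bp. Other exons among the 20 with the most bases, a ranking that favours long exons, were in cadherin genes picked after their values were seen: DCHS1 (99.2% of 2609 bp), DCHS2 (94.8% of 2052 bp), CELSR1 (56.5% of 3544 bp), PCDH10 (74.4% of 2688 bp) and PCDH1 (79.1% of 2277 bp). All 20 exons had 0 bases in RS peaks and 0 bases in the DiffBind regions over a peak. By the rule, bases inside a region without a peak cannot lie in either, so the ranking favours such exons.

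By exon length, outside zinc finger genes, 0.279% of coding exons under 200 bp, 2.17% of those of 500 to under 1000 bp and 5.30% of those of 1000 to under 2000 bp were touched by a region without a peak. The matching shares for the regions over a peak were 0.514, 1.67 and 3.26%, although that set was the larger. At 2000 bp and over they were 4.24 and 5.49%. A longer exon offers more bases to touch, so each class compares the sets with each other and not with the next class. In zinc finger genes the exons of 1000 to under 2000 bp, a class with many finger-coding exons, went the other way, with 3.95% against 42.5%.

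Promoters, taken as the 2000 bp on either side of a gene start, were touched by 240 regions (5.33%), against 2.77% over a peak, 2.75% of RS peaks and 13.8% of PRO peaks. Bodies of protein-coding genes held 37.9% of the bases, against 40.9% over a peak and 46.5% of the genome. Regions that touched no gene of any kind numbered 1866 (41.5%), close to the 40.8% over a peak. A further 1065 (23.7%) lay wholly in introns of coding genes, against 28.5%.

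By the rule, none of the regions touched an RS peak. Their distances to peaks were not set beside those of random sites. The median distance to the nearest RS peak was 21599 bp (interquartile range 5199 to 65799 bp). Within 1 kb lay 419 regions (9.31%), within 10 kb 1607 (35.7%) and within 100 kb 3783 (84.1%). Peaks within 10 kb on both sides flanked 329 (7.31%). PRO peaks were far fewer, and the median distance to one was 681399 bp. The nearest DiffBind region that did overlap a peak lay at a median of 55399 bp.

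**Figure D5:**
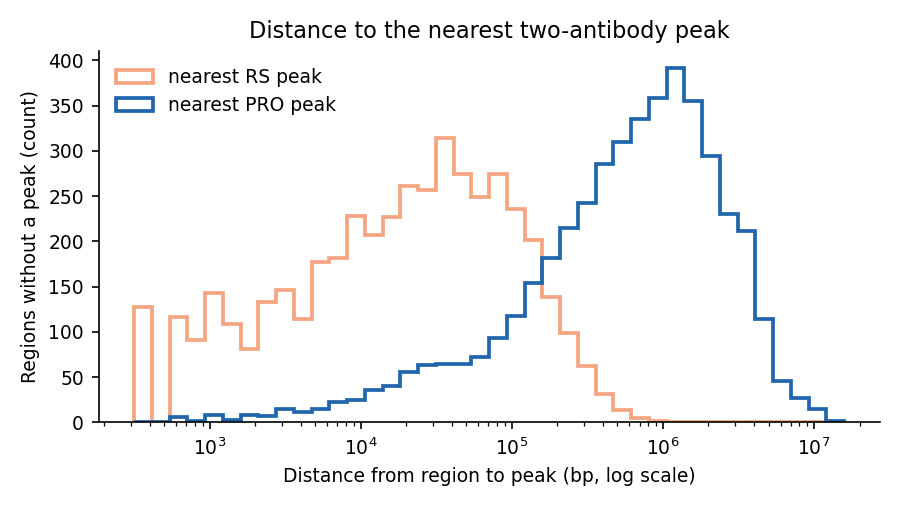
Number of DiffBind regions without a peak (y axis) by distance to the nearest RS peak (orange) and PRO peak (blue), in bp on a log scale. The medians are 21599 bp for RS peaks and 681399 bp for PRO peaks.

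The regions near to and far from RS peaks differed in content. Within 10 kb of one, 4.85% touched a zinc finger gene and 8.34% a coding exon, and the median GC content was 49.2%. Between 10 and 100 kb the shares were 0.506 and 12.9%, with a GC content of 52.0%. Beyond 100 kb, in 716 regions, they were 0.838 and 19.8%, with a GC content of 51.6%, and promoters were touched by 8.10%, against 3.48% within 10 kb. Their place in the list hardly changed with distance, with medians of 72.9, 72.5 and 74.5%.

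The smallest distance to a peak was 399 bp and was shared by 127 regions, among them one of 1001 bp in an intron of ATAD3A (chr1:1467801-1468801), a gene for a mitochondrial membrane protein. Among the 5 regions farthest from a peak, those at chr22:36465601-36467601 and chr22:36446801-36449001, 40728 and 21928 bp from the nearest coding gene, the splicing factor gene RBFOX2, lay 634799 and 615999 bp from a peak. Just outside the rule, 58 DiffBind regions touched a peak by exactly 1 base, which is how adjacent windows meet in these lists. The lowest share covered by a peak among them was 0.0167%, in a region of 6001 bp at NUTM2B (chr10:81463001-81469001). Under 10% of the length was covered in 123 regions, whereas the median coverage of the DiffBind regions over a peak was 70.0%.

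Repeated sequence was present but not general. At least 1 window of 75 bases with another exact copy in the genome was found in 1547 regions (34.4%), against 46.1% over a peak and 38.7% of RS peaks. By windows the order was reversed: 10.4% of the windows in the regions without a peak were repeated, 8.06% over a peak, 13.0% in RS peaks, 44.9% in PRO peaks and 3.99% of the genome. Repeats over at least 50% of the windows were seen in 275 regions (6.11%), against 3.96% over a peak. Stretches of 24 bases with at least 10 copies, a measure that also takes in older transposon copies, made up a median of 16.2% of a region, against 24.4% over a peak and 25.5% in RS peaks. The satellite motifs searched were rare in both sets of DiffBind regions. A CENP-B box, the motif bound by a centromere protein in alpha satellite, was in 8 regions (0.178%), against 0.123% over a peak. Of GGAAT, 3 tandem copies were in 2 regions (0.0445%), against 0.0460% over a peak. Satellite sequence without these motifs was not searched for. The telomeric repeat TTAGGG in 3 tandem copies was in 0 of the regions and also in 0 of those over a peak, against 15 PRO peaks and 14 RS peaks. Each motif was searched on both strands.

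The 275 repeated regions were longer, with a median of 1801 bp, and 8 of the 10 longest regions were among them. The longest, 9201 bp at chr9:12001-21201, lay at the end of the short arm and reached into WASHC1, which encodes a subunit of the WASH complex of endosomes, and 88.0% of its windows were repeated. One of 7401 bp at chr16:60201-67601 covered DDX11L and WASH copies at the end of 16p, with 62.2% repeated. Neighbours at chr7:102245601-102252001 (6401 bp) and chr7:102239001-102245001 (6001 bp) lay in RASA4, a Ras GTPase-activating protein with near-identical copies, with 88.6 and 92.0% repeated. An exception was a region of 7201 bp at chr8:145651401-145658601, with 3.50% repeated, over VPS28, a subunit of the ESCRT-I sorting complex, and TONSL, a protein of replication fork repair. Reads from such copies cannot be placed with certainty, so the regions of RASA4, WASHC1 and the HSP70 and defensin genes may belong to another copy.

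A total of 1480 of 19229 protein-coding genes (7.70%) held at least 1 region without a peak. Of these, 604 (40.8%) held no PRO peak, no RS peak and no other DiffBind region. Across all 19229 coding genes, 4000 held an RS peak, 2686 a DiffBind region over a peak and 782 a PRO peak. Most coding genes thus held none of these, so the 604 do not stand out. By bases, the gene ENSG00000205236, which overlaps RASA4, came first with 17003 bp in 3 regions, 92.0% of whose windows were repeated. PTPRN2, a receptor-type phosphatase of secretory granules, followed with 15410 bp in 10 regions, and also held 77878 bp of RS peaks. The photoreceptor gene EYS had 9810 bp in 10 regions and 18421 bp of RS peaks, and TSPEAR, whose body holds keratin-associated protein genes, had 9606 bp in 6. The synaptic scaffold gene DLGAP2 had 8805 bp and the transcription factor gene CAMTA1 8205 bp, and the cell adhesion gene SDK1 had 8036 bp, each in 5 regions and beside RS peaks. BSN differed from these long genes: its 8605 bp in 5 regions made up 7.35% of the gene, 0% of the windows were repeated, and it held 0 bases of peaks. In ZNF423 there were 9203 bp in 3 regions, against 1602 bp of RS peaks.

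By share of the gene body, short genes led, and all 10 of the leading genes of at least 2000 bp had 0 bases in PRO peaks, RS peaks and other DiffBind regions. The rule leaves only the rest of each gene body free to hold a peak, so this ranking favours such genes. HSPA1A had 83.2% of its 2404 bp in a region and its neighbour HSPA1B 71.6%, with 87.2 and 92.9% of windows repeated, and the genes are near-identical copies that encode the same chaperone. The defensin genes DEFA1B (54.0%) and DEFA3 (49.9%) were repeated too, at 96.8 and 52.3%. In unique sequence were RFNG, a glycosyltransferase that modifies Notch (56.0%), FZD10 (54.9%), HTR1B (54.6%) and HOXD1, a homeobox transcription factor (53.6%), all with 0% of windows repeated. VPS28 (51.3%) and the demethylase family gene KDM4F (50.1%) completed the group. The list places varied from 9.25% for HSPA1A and 27.1% for FZD10 to 93.3% for HTR1B, so they were not all at its end.

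Gene families were counted on chromosomes 1 to 22. Across all 19229 coding genes, 7.70% held a region without a peak. A region over a peak was in 2686 of them, an RS peak in 4000 and a PRO peak in 782. Of 553 zinc finger genes, 80 (14.5%) held a region without a peak, a share above that of all coding genes. A region over a peak was in 289 (52.3%), an RS peak in 356 (64.4%) and a PRO peak in 169 (30.6%). Among the 80, 13 held no peak and no other DiffBind region, and 45 were on chromosome 19. Clustered protocadherins, neuronal adhesion genes in tandem arrays, had none in 53 genes, whereas 45 had an RS peak. The multicopy families USP17L and FAM90A had 1 of 26 and 0 of 21, against 23 and 20 with an RS peak. Olfactory receptors had 4 of 414, against 45 with an RS peak.

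Among the other planned families, keratin-associated proteins had 7 of 94, ribosomal proteins 3 of 80 and kinesins, the microtubule motors, 3 of 38. Collagens, matrix proteins of which fibroblasts make several, had 10 of 42, against 7 with a region over a peak and 15 with an RS peak, and the 10 included COL2A1, COL7A1 and COL18A1. Across all coding genes the share was 7.70%, which is the level to read these counts against, although long genes offer more bases. Families chosen after their values were seen were the Frizzled receptors, with FZD5, FZD7 and FZD10 of 10 genes, none of which was touched in the other lists, the non-clustered protocadherins with 3 of 10, the POU transcription factors with 4 of 14 and the HOX genes with 5 of 39. An RS peak was in 6 of these protocadherins, 1 POU gene and 2 HOX genes. A DiffBind region over a peak was in 4, 1 and 2 of them, and a PRO peak in 1, 0 and 4. In FZD7 the region covered 1601 bp (34.9%) of the gene and in FZD5 1401 bp (19.2%).

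The planned gene lists were small, and their counts are to be read against the 7.70% of all coding genes that held such a region, a share at which a list of this size holds few or none. In the list for senescence and cell cycle exit, 2 of 11 genes (18.2%) had one: GLB1, which encodes the lysosomal beta-galactosidase used as a stain for senescent cells, with 2001 bp and no peak, and the tumour suppressor gene RB1 with 1201 bp beside 5605 bp of RS peaks. The secretory list, which held cytokines, proteases and binding proteins released by senescent cells, had 0 of 10 in any of the lists. The enzymes of H4K20 methylation had 0 of 4 in any list. Genes of heterochromatin formation had 0 of 12, with SETDB1, DNMT3A and EHMT1, which encode histone and DNA methyltransferases, holding RS peaks.

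In space, the regions were scattered. Of 2897 windows of 1 Mb, 2021 (69.8%) held at least 1, and 822 held exactly 1. The most in a window was 13, reached at chr11:50000001-51000000 and chr11:51000001-52000000, beside the centromere, where 13 and 10 regions over a peak also lay. By bases the first window was chr7:102000001-103000000, the site of RASA4, with 7 regions and 26007 bp. Within 500 kb of a chromosome end lay 45 regions (1.00%), against 1.79% over a peak, 1.73% of RS peaks and 5.00% of PRO peaks.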

How the data were processed

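H4K20me3 ChIP-seq was performed in PRO and RS IMR90 cells with 2 antibodies, which stood as the replicates of a group. Per the labels, CASAVA 1.8.2, Trim Galore 0.3.0, Bowtie2 2.1.0, Picard 1.98, SICER 1.1 and DiffBind 1.8.3 were used, with hg19. The authors found domains in windows of 200 bp against a histone H4 ChIP, intersected those of both antibodies within a group and compared PRO with RS in DiffBind, for which the sources name more than 1 count model. The stated DiffBind setting admitted a candidate region from a domain in 1 sample, while the study's account of its results speaks of the intersected peaks, so the candidate set is not certain. The 3 lists were deposited as positions, in bases, with neither a score nor a fold, p-value or direction. The DiffBind list is shorter than the study describes, so all values hold for the list used here. Of all columns, 0 were left unused.

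Starts lay on a 200 bp grid and ends 1 base past it. Peaks of 1 base were kept. Overlap was counted from 1 base, and distances from edge to edge, with GENCODE release 44 mapped to GRCh37, which shares hg19 coordinates. Gene lists use current symbols. GC content, CpG ratio and motifs came from that sequence, as did copies of 75-base windows (every 25 bases) and 24-base windows (every 10 bases), counted exactly on both strands. For these copies the genome value came from 1 window every 5000 bases. The overlap and copy counts were tested on simulated data. Python 3.11.15 with numpy 2.4.6, pandas 2.3.3, scipy 1.17.1, numba 0.67.0 and pysam 0.24.0 was used. Coordinates are printed 1-based.

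The members, families, lists and bins were chosen with earlier results of these data known. The named regions were the 10 longest, the 5 farthest from and 5 nearest to a peak, and the 5 least covered by a peak. The named genes were the 10 with the most bases and the 10 with the largest share in these regions, and the first regions of the list and the leading exons were added after values were seen. Every value is a count or summary of whole lists, without a test. The lists carry no depth and the study's read totals entered no value here, so no interval that rests on counts of reads was given. The sequence of the region farthest from a peak is not reported here.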

Additional observations from a re-analysis of the deposited data

How the results depend on the processing

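Over 8 results and 8 alternatives, of which lowering region ends by 1 base (for overlap and distance) and keeping the first 50% of the list were chosen after seeing the data, 62 values were computed. None was tested. Of these values, 46 stayed within the 95% interval of the reported value (or, for the number of regions, within 1.5 times it) and 16 moved. The intervals were binomial and took the regions as independent, which neighbouring regions are not. For shares of bases they used the number of regions in place of bases. They serve only as a rough guide to what moved and measure no spread between samples. Counting a gap of up to 1000 bp as overlap gave a share of bases in zinc finger genes of 1.17%, a median distance to an RS peak of 27199 bp and a GC content of 51.4%. Keeping regions of at least 1000 bp gave a distance of 24699 bp, a GC content of 51.7% and a share of regions with a repeated window of 37.4%. Leaving out regions with a repeated window left 2952, with 40.5% of bases in coding genes. Without chromosome 19, 0.833% of bases were in zinc finger genes. In the first 50% of the list were 944 regions, with a median length of 1801 bp, 35.7% of bases in coding genes, 2.22% in zinc finger genes, 6.12% on chromosome 19, a GC content of 51.6% and 41.5% with a repeated window. The regions over a peak there also had a median length of 1801 bp, so the difference in length was not seen in that part, whereas GC content (51.6 against 48.1%) and the share over a coding exon (14.8 against 9.35%) differed as in the whole list. Requiring peaks to cover at least 10% of a region gave 4622 regions, and leaving out 1-base peaks gave 4557. No replicate could be left out, since each group is 1 merged list. No paired analysis was possible because the lists hold no value per sample.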

Other observations

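On chromosome X, which the rule leaves out, 392 of 1162 DiffBind regions (33.7%) overlapped no PRO or RS peak, against 25.6% on chromosomes 1 to 22, and their median length was 1201 bp.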
